A study of Mus musculus with 12 samples.

Results

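The peroxiredoxins and glutathione peroxidases measured here were Prdx1, Prdx2, Prdx3, Prdx4, Prdx5, Prdx6, Gpx1, Gpx3, Gpx4 and Gpx7. Every array probe whose gene symbol in the deposited probe table was one of these 10 genes was taken, which gave 10 of the 27306 gene symbols and 18 of the 56605 probes, 14 for peroxiredoxins and 4 for glutathione peroxidases. The cells were C2C12, a line of mouse C3H skeletal muscle myoblasts that fuse into myotubes when serum is withdrawn. They were transfected either with a control siRNA (siControl) or with an siRNA against Bach1 (siBach1), which the study's methods give as a single duplex. RNA was taken at day 0, without induction of differentiation, or at day 2 after the medium had been changed at confluence, 24 hours after transfection, to one with 2% horse serum. The 4 conditions were thus siControl day 0, siBach1 day 0, siControl day 2 and siBach1 day 2, with 3 arrays each and 1 array per RNA sample. All 12 samples came from this 1 line and all had been transfected, and the labels do not say whether replicates were separate cultures, so that p-values measure the spread between these samples only. The design asks how silencing changed these enzymes at each day, how the 2 days differed with each siRNA, and whether the silencing effect depended on the day.

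Peroxiredoxins and glutathione peroxidases reduce hydrogen peroxide and lipid peroxides. Peroxiredoxins use a reactive cysteine that is recycled mostly by thioredoxin, thioredoxin reductase and NADPH. Of the glutathione peroxidases measured here, Gpx1, Gpx3 and Gpx4 use a selenocysteine and draw electrons mainly from glutathione. Bach1 is a haem-sensitive repressor that binds with small Maf proteins at antioxidant response elements, the sites that Nrf2 uses to activate genes of oxidant defence, and Hmox1 is its best known target. Skeletal muscle produces peroxide in its mitochondria and by membrane oxidases, and these enzymes help to remove it.

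The labels were checked on 3 genes outside the family. Bach1 fell by 1.77 on the log2 scale at day 0 and by 1.97 at day 2 in siBach1 against siControl cells (limma, adjusted p = 1.23e-05 and 1.36e-05). Hmox1, the haem oxygenase gene, was higher by 3.30 and 3.12 (limma, adjusted p = 1.42e-06 and 2.77e-06), and Myog, which encodes myogenin, rose by 4.85 from day 0 to day 2 with siControl and by 3.77 with siBach1 (limma, adjusted p = 7.4e-08 and 3.63e-07). Of the 7 myoblast markers, 6 (Myod1, Pax7, Des, Cdh15, Itga7 and Ncam1) passed the background flag on each of the 12 arrays, and so did all 10 genes of the differentiating muscle list. The 12 arrays had between 26921 and 33313 probes well above background. No spot was saturated. The arrays lay on 2 slides, with replicates 1 and 2 of every condition on slide 1 and replicate 3 on slide 2, and each condition had its own column of both slides, so that position and condition cannot be told apart.

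Marker lists of muscle and of other cells were summed as signal relative to each array's 75th percentile. For the differentiating muscle list the sums were 46.2 to 68.9 in siControl day 0, 41.2 to 59.7 in siBach1 day 0, 1916 to 2094 in siControl day 2 and 1318 to 1565 in siBach1 day 2 arrays, so that the last 2 conditions did not overlap. Myog differed there by -0.98 (limma, adjusted p = 0.0165). The myoblast list gave 237 to 257, 285 to 318, 612 to 627 and 495 to 512 in the same order, and the fibroblast list 1.59 to 2.74, 1.13 to 1.58, 52.9 to 71.3 and 44.6 to 48.2. For the adipocyte list they were 8.89 to 9.97, 8.47 to 10.8, 5.79 to 7.08 and 10.5 to 13.1, with Adipoq and Cfd not well above background on any array. Among the lists given here, the siBach1 arrays at day 0 lay above the siControl arrays for the myoblast sums and the macrophage sums (8.15 to 8.95 against 7.05 to 8.01) and below them for the fibroblast sums. Single genes did not all go with these sums. In the macrophage list only Cd68 passed at day 0, and it was lower (-0.48, limma, adjusted p = 0.0176). In the myoblast list Cdh15, Itga7 and Ncam1 passed as higher, while Pax7 was at -0.78 and did not pass (limma, adjusted p = 0.114). No fibroblast gene passed at day 0. The osteoblast (1.37 to 1.89 and 1.54 to 2.28 at day 2), macrophage (4.94 to 7.24 and 4.75 to 7.45) and endothelial (0.113 to 0.134 and 0.084 to 0.149) sums of siControl and siBach1 arrays overlapped at day 2. Adgre1, Thy1, Cdh5, Kdr and Tek were well above background on no array. In RNA from a whole culture fewer cells of a type and less RNA per cell cannot be told apart. The muscle, myoblast and fibroblast sums moved with the day and, at day 2, with the siRNA. The adipocyte sums also differed between the siRNAs at day 2, but with siBach1 their day 0 and day 2 ranges overlapped. A sum is led by its brightest genes. In the fibroblast list only Pdgfra passed for silencing at day 2, and it was higher (0.51, limma, adjusted p = 0.028), against the lower sum. In the adipocyte list only Lpl passed there (1.15, limma, adjusted p = 0.000203). The part of these sums in the results that follow was not tested.

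The proximal promoters were searched for the letters of sites that Bach1, its partners and myogenic factors are known to use. RefSeq promoter windows of assembly GRCm38.p6, 250 bases before to 50 bases after each start, were at hand for 9 of the 10 genes (12 windows, 4 of them for Gpx4) and not for Prdx6. Both strands were searched for TGACNNNGC, the core of the antioxidant response element, for TGANTCA, the core shared by AP-1 and Maf sites, and for CAGCTG, an E-box. Prdx1 was the only member of the 9 with TGACNNNGC or TGANTCA in its window. It held 1 match of TGACNNNGC on the minus strand and 2 of TGANTCA, 1 of which overlapped the TGACNNNGC match. CAGCTG was found in 1 of the 4 Gpx4 windows and in that of Gpx7. Among all 32851 windows of this length 12.4% held TGACNNNGC, 7.81% TGANTCA and 16.3% CAGCTG. The 250 bases before the start are shown for Prdx1, which held the matches, and for Prdx2 and Gpx3, the members with a window whose signal differed between siBach1 and siControl cells at day 0 or at day 2. Capitals mark every match. The stretches lie at chr4:116685349-116685598, chr8:84969372-84969621 and chr11:54902604-54902853, on the plus strand in each case.
Prdx1: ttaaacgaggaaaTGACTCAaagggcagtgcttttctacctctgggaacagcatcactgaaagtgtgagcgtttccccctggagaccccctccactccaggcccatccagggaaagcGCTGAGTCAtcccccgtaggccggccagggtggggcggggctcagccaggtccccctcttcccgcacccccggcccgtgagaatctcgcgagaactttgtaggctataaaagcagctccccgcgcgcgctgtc
Prdx2: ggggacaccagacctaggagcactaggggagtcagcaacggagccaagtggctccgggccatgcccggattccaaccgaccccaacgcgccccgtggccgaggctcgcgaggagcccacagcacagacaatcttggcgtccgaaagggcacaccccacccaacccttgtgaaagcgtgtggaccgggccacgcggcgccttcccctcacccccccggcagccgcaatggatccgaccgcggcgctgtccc
Gpx3: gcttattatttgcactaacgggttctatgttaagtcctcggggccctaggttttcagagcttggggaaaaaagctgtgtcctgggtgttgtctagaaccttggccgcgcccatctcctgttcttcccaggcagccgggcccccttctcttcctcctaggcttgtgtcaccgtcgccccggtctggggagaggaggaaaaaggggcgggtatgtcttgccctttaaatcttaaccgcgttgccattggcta
The Prdx2 and Gpx3 stretches held no match, which says only that these letters are not in this window. A match of letters is not a measured binding site.

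Of the 18 probes, 15 were tested, that is, in at least 1 of the 4 conditions all 3 arrays had them flagged as well above background, and 14 of these were so flagged on all 12 arrays. The exception was Prdx4 A_55_P2058340, which passed through its day 0 arrays and was well above background on 1 siControl and 2 siBach1 arrays of the 3 at day 2. Values below are log2 processed signals minus the 75th percentile of the array. A probe is set only against itself, because probes differ in how strongly they bind. All 15 are drawn by array in the plot of log2 signals.

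**Figure D1:**
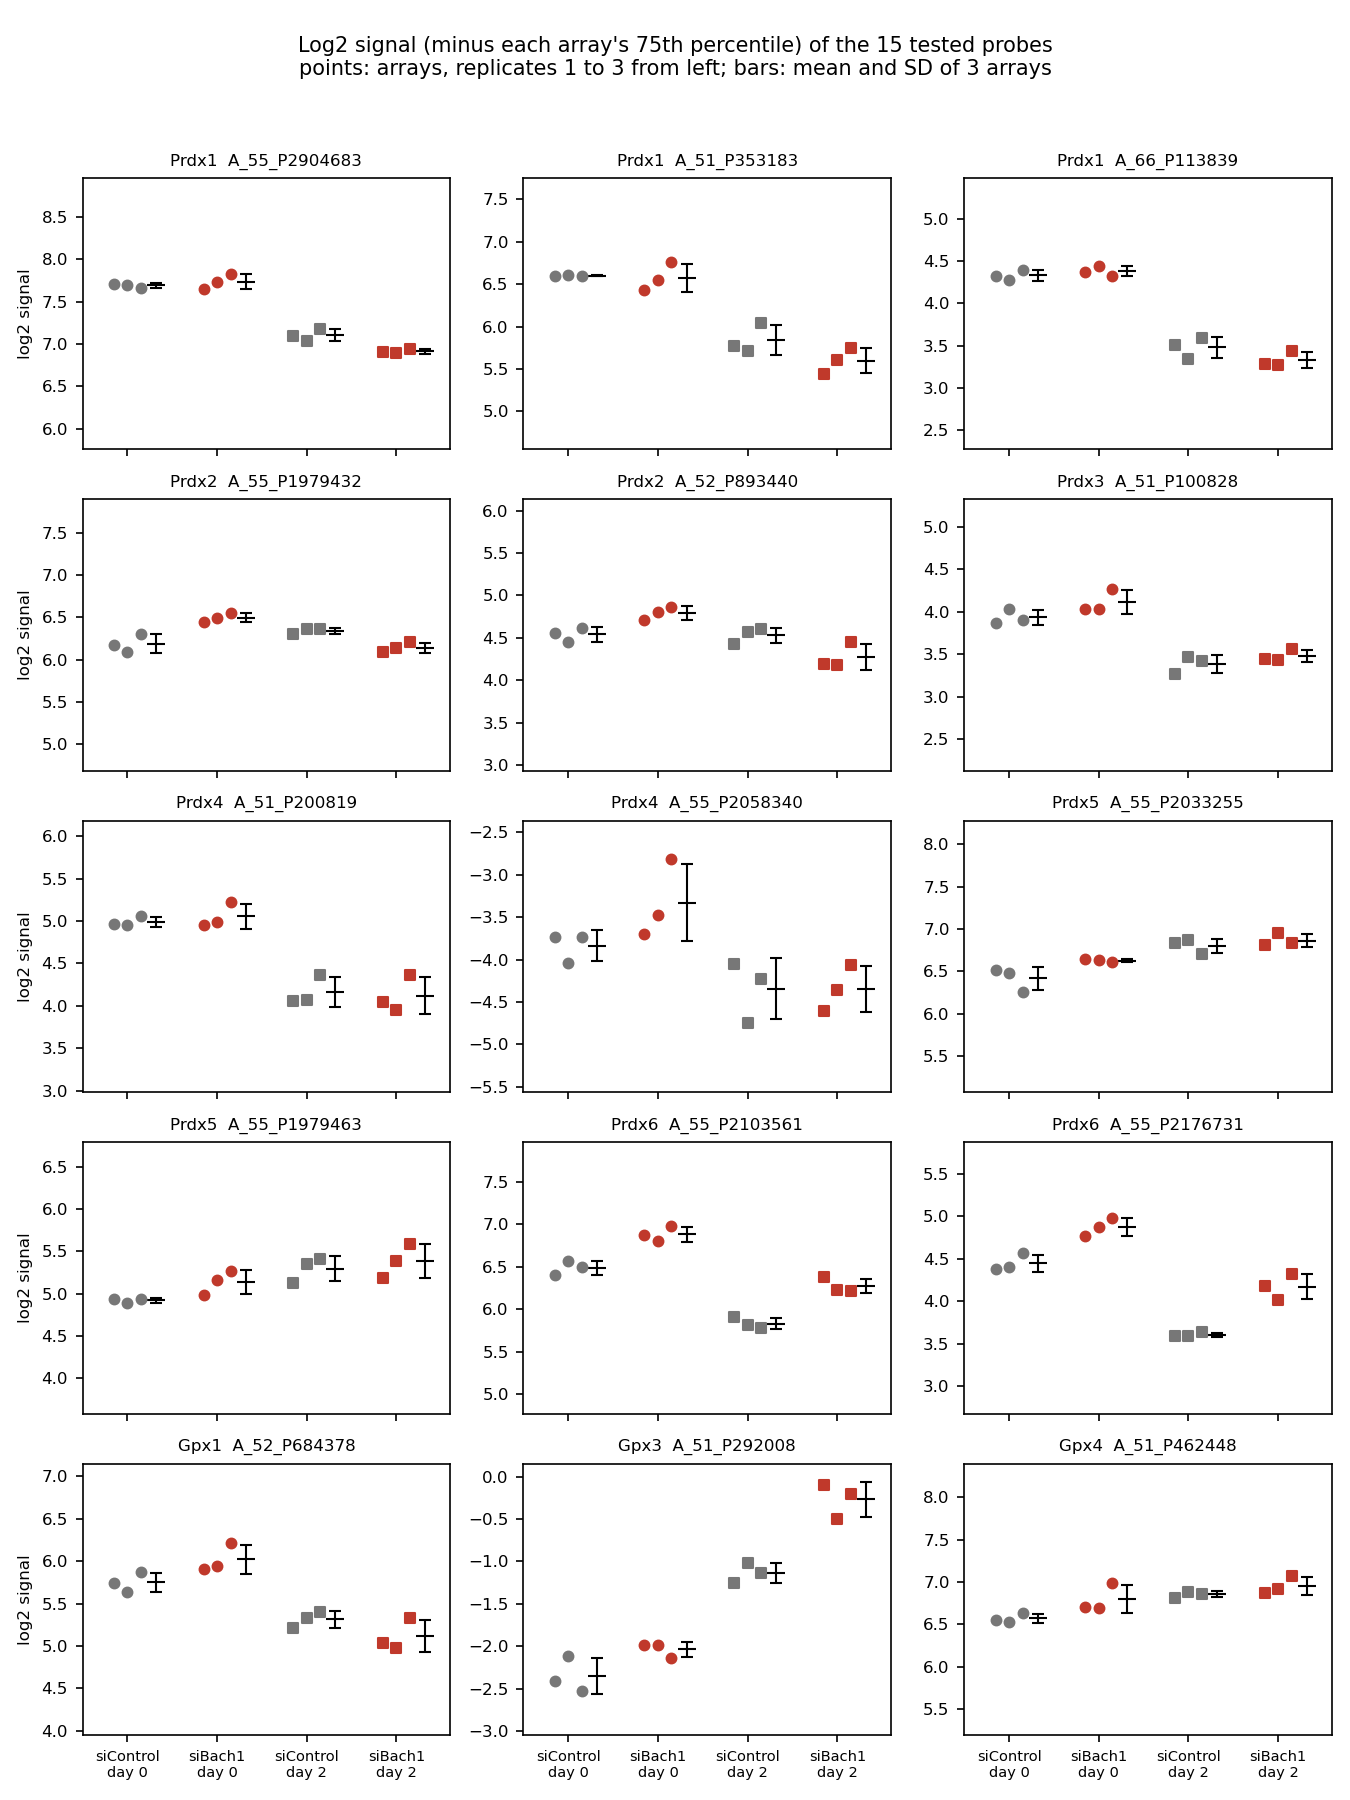
Log2 signal minus the array's 75th percentile (y axis, 3.2 log2 units in every panel) of the 15 tested probes in the 4 conditions (x axis), with grey for siControl, red for siBach1, circles for day 0 and squares for day 2. Points are single arrays and bars give the mean and SD of 3 arrays. Gpx3 moves from a mean of -2.35 in siControl day 0 to -0.27 in siBach1 day 2 arrays, and both Prdx6 probes sit higher in siBach1 than in siControl arrays at both days.

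Before differentiation, 3 of the 15 tested probes were higher in siBach1 than in siControl cells, both probes of Prdx6 and 1 of the 2 of Prdx2. None was lower (limma, adjusted p under 0.05; 7 higher and 0 lower at an unadjusted p under 0.05). Over all 29664 probes tested, 17.1% passed, 8.8% as higher and 8.32% as lower. No member reached a 2-fold change, as 2.79% of all probes did. The median log2 fold change was 0.23 over the 15 probes and 0.09 over all probes. Above 0 were 14 of the 15, beside 18480 of all 29664 probes. In 9 of the 15 probes the 3 siBach1 arrays all lay above the 3 siControl arrays, against 21.9% of all probes, and in none did they all lie below, against 15.4%. For single probes an exact permutation test of 3 against 3 arrays cannot go below p = 0.1 (two-sided).

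Prdx6, the single-cysteine peroxiredoxin that also has phospholipase activity and reduces phospholipid peroxides, was higher after silencing on both of its probes. On probe A_55_P2103561 its log2 signal was 6.40, 6.56 and 6.50 in the siControl day 0 arrays and 6.87, 6.80 and 6.98 in the siBach1 day 0 arrays. The 2 conditions did not overlap. The difference was 0.39 ± 0.08 (SE; 1.31-fold; limma, adjusted p = 0.0098), with 0.35 on slide 1 and 0.48 on slide 2. On probe A_55_P2176731 the arrays read 4.38, 4.40 and 4.57 with siControl and 4.77, 4.87 and 4.98 with siBach1, again without overlap, a difference of 0.42 ± 0.10 (limma, adjusted p = 0.0137). This second call was lost without siControl day 0 replicate 1 (adjusted p = 0.0566) or replicate 2 (adjusted p = 0.0548), with the difference at 0.39 and 0.40. Quantile normalization in place of the percentile left the first probe at 0.25 (limma, adjusted p = 0.0653), and without the filter on dim probes neither passed (adjusted p = 0.0672 and 0.0759).

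Prdx2, a thiol peroxidase of the cytosol, read 6.17, 6.09 and 6.31 in siControl and 6.44, 6.49 and 6.56 in siBach1 day 0 arrays on probe A_55_P1979432. The siBach1 arrays all lay higher, by 0.31 ± 0.08 (1.24-fold; limma, adjusted p = 0.0236). The other probe, A_52_P893440, read 4.56, 4.45 and 4.62 and 4.70, 4.80 and 4.86, also without overlap, but its difference of 0.25 ± 0.10 did not pass (limma, adjusted p = 0.115). With the replicate number, which pairs an array of each condition, as a block it did (adjusted p = 0.0364). The call on A_55_P1979432 ended without the filter (adjusted p = 0.14), with the day 0 arrays alone (0.0859), under quantile normalization (0.18, adjusted p = 0.121) and in 4 of the 12 fits with 1 array left out, those without siBach1 day 0 replicate 2 (adjusted p = 0.0592) or 3 (0.0721) and without siControl day 0 replicate 1 (0.0768) or 2 (0.0956). Within slides its difference was 0.34 on slide 1 and 0.25 on slide 2.

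The remaining members did not pass at day 0. Gpx1, the cytosolic selenoprotein peroxidase, read 5.74, 5.64 and 5.87 with siControl and 5.90, 5.94 and 6.22 with siBach1, a difference of 0.27 (95% confidence interval 0.00 to 0.54; limma, adjusted p = 0.163). Gpx4, which reduces phospholipid hydroperoxides within membranes, differed by 0.23 (0.01 to 0.44; adjusted p = 0.142). With the replicate block Gpx1 and Gpx4 passed (limma, adjusted p = 0.0265 and 0.0496), which with Prdx2 A_52_P893440 brought the count to 6. That count is not set against the share of all probes past the test with the block. Gpx3, the secreted peroxidase of plasma and extracellular fluid, differed by 0.32 (0.01 to 0.62; adjusted p = 0.143) and its conditions overlapped. Prdx5, found in mitochondria, peroxisomes and cytosol, was at 0.21 and 0.22 on its 2 probes (adjusted p = 0.135 and 0.257). Prdx3, the mitochondrial peroxiredoxin, was at 0.17 (-0.04 to 0.39). The 3 probes of Prdx1, a main cytosolic peroxiredoxin, were at 0.05, -0.02 and 0.05, and the intervals of these 3 differences ran from -0.29 to 0.24. Prdx4, the peroxiredoxin of the endoplasmic reticulum, was at 0.06 on A_51_P200819 and at 0.51 on the dim probe A_55_P2058340, whose interval ran from -0.04 to 1.06.

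**Figure D2:**
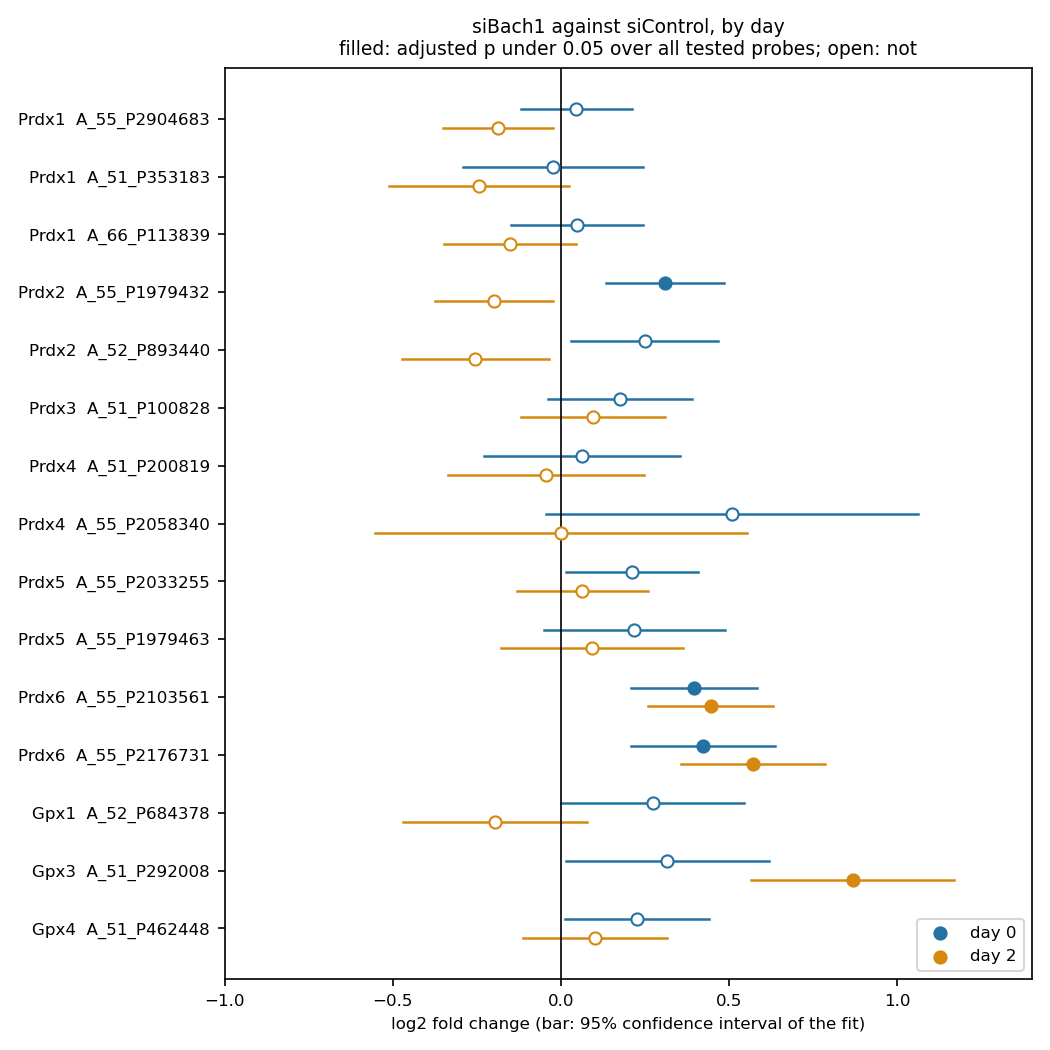
Log2 fold change of siBach1 against siControl (x axis) for the 15 tested probes (y axis), with blue for day 0 and orange for day 2, and the 95% confidence interval of the fit as a bar. Filled points have an adjusted p under 0.05. Prdx6 is filled at both days on both probes, Gpx3 at day 2 and Prdx2 A_55_P1979432 at day 0, while Prdx2 and Gpx1 lie right of 0 at day 0 and left of it at day 2.

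At day 2 of differentiation, 3 of the 15 probes were again higher in siBach1 than in siControl cells, this time the single probe of Gpx3 and both probes of Prdx6. None was lower (limma, adjusted p under 0.05; 3 higher and 3 lower at an unadjusted p under 0.05). Over all probes 12% passed, 5.75% as higher and 6.26% as lower. The median log2 fold change was 0.00 over the 15 probes and -0.01 over all probes. Above 0 were 8 of the 15, beside 14274 of all 29664 probes. No member reached 2-fold, as 2.17% of all probes did. By the methods' t-test 5 probes passed at an unadjusted p under 0.05 (3 higher, 2 lower) and none after Benjamini-Hochberg adjustment.

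Gpx3 read -1.26, -1.01 and -1.13 in siControl day 2 arrays and -0.10, -0.50 and -0.20 in siBach1 day 2 arrays. The lowest siBach1 array lay above the highest siControl array. The difference was 0.87 ± 0.14 (1.82-fold; 95% confidence interval 0.57 to 1.17; limma, adjusted p = 0.00345). It was 0.84 on slide 1 and 0.93 on slide 2. Left-out arrays kept it between 0.78 and 0.98, past the test in all 12 fits, whereas the methods' t-test with Benjamini-Hochberg adjustment gave an adjusted p of 0.0625.

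Prdx6 A_55_P2103561 read 5.90, 5.81 and 5.77 with siControl and 6.37, 6.22 and 6.22 with siBach1 at day 2. The arrays did not overlap and differed by 0.44 ± 0.08 (1.36-fold; limma, adjusted p = 0.00853). A_55_P2176731 read 3.59, 3.59 and 3.63 and 4.18, 4.02 and 4.32, apart by 0.57 ± 0.10 (1.48-fold; limma, adjusted p = 0.00511). Each of the 3 replicate numbers showed the difference on both probes at both days. Within slides the first probe differed by 0.44 on slide 1 and 0.45 on slide 2, and it missed the threshold without the filter (adjusted p = 0.0614).

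The other members at day 2 lay on both sides of 0 and did not pass. Prdx2 read 6.30, 6.36 and 6.36 with siControl against 6.08, 6.14 and 6.20 with siBach1 on A_55_P1979432, where the arrays did not overlap, and its differences were -0.20 (-0.38 to -0.02) and -0.26 (-0.47 to -0.04; limma, adjusted p = 0.134 and 0.124). With the replicate block the second of these passed (limma, adjusted p = 0.0398), and it then stood as the 1 probe lower at day 2 beside the 3 higher. With the slide as a block both Prdx2 probes passed as lower (limma, adjusted p = 0.0424 and 0.0304). Gpx1 was at -0.20 (-0.47 to 0.08) with overlapping arrays. The Prdx1 probes were at -0.19, -0.25 and -0.15, and only A_55_P2904683 had non-overlapping arrays. Prdx3 (0.10), Prdx4 (-0.04 and 0.00), Prdx5 (0.06 and 0.09) and Gpx4 (0.10) had intervals that reached both sides of 0, the widest of them from -0.55 to 0.55 on the dim Prdx4 probe. Over the 15 probes, 3 were higher and 2 lower without overlap, beside 15.7% and 17.1% of all probes.

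Whether silencing acted differently at the 2 days was tested as the difference between the silencing effects, day 2 minus day 0. It passed for 1 of 15 probes, Prdx2 A_55_P1979432 (4.59% of all probes passed, 2.39% with a positive and 2.2% with a negative sign). At 2-fold or more it passed for 0 of 15, as against 1.44% of all probes (limma; 1 positive and 4 negative at an unadjusted p under 0.05). The effect on this probe was 0.27, 0.41 and 0.25 at day 0 and -0.22, -0.22 and -0.16 at day 2 by replicate number. All 3 pairs thus changed sign. The difference was -0.51 ± 0.11 (-0.76 to -0.26; limma, adjusted p = 0.0334). The other Prdx2 probe gave nearly the same value, -0.50 ± 0.14, with adjusted p = 0.0693 in limma and 0.021 with the replicate block. On A_55_P1979432 the block gave 0.0141. The call ended under quantile normalization (-0.22, adjusted p = 0.272), normexp background correction (-0.42, 0.0609) and without the filter on dim probes (adjusted p = 0.208), and in 10 of the 12 fits with 1 array left out, with the value between -0.46 and -0.57. The adjusted p was 0.0827 and 0.0823 without siControl day 0 replicates 1 and 2, 0.0692 and 0.0648 without siBach1 day 0 replicates 2 and 3, 0.0649, 0.0607 and 0.0636 without each siControl day 2 replicate and 0.0907, 0.0702 and 0.0507 without each siBach1 day 2 replicate. The direction was the same in all 12.

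Gpx1 had the same kind of order, 0.16, 0.31 and 0.35 at day 0 and -0.18, -0.35 and -0.07 at day 2 by replicate number, and a difference of -0.47 (-0.85 to -0.08) that did not pass (limma, adjusted p = 0.152) but did with the replicate block (adjusted p = 0.0257). Gpx3 was at 0.55 (0.12 to 0.98; limma, adjusted p = 0.129), so that its day 2 call and missing day 0 call are not shown to differ. For Prdx6 the differences were 0.05 (-0.21 to 0.31) and 0.15 (-0.16 to 0.45). The replicate differences of these 4 genes are drawn by day.

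**Figure D3:**
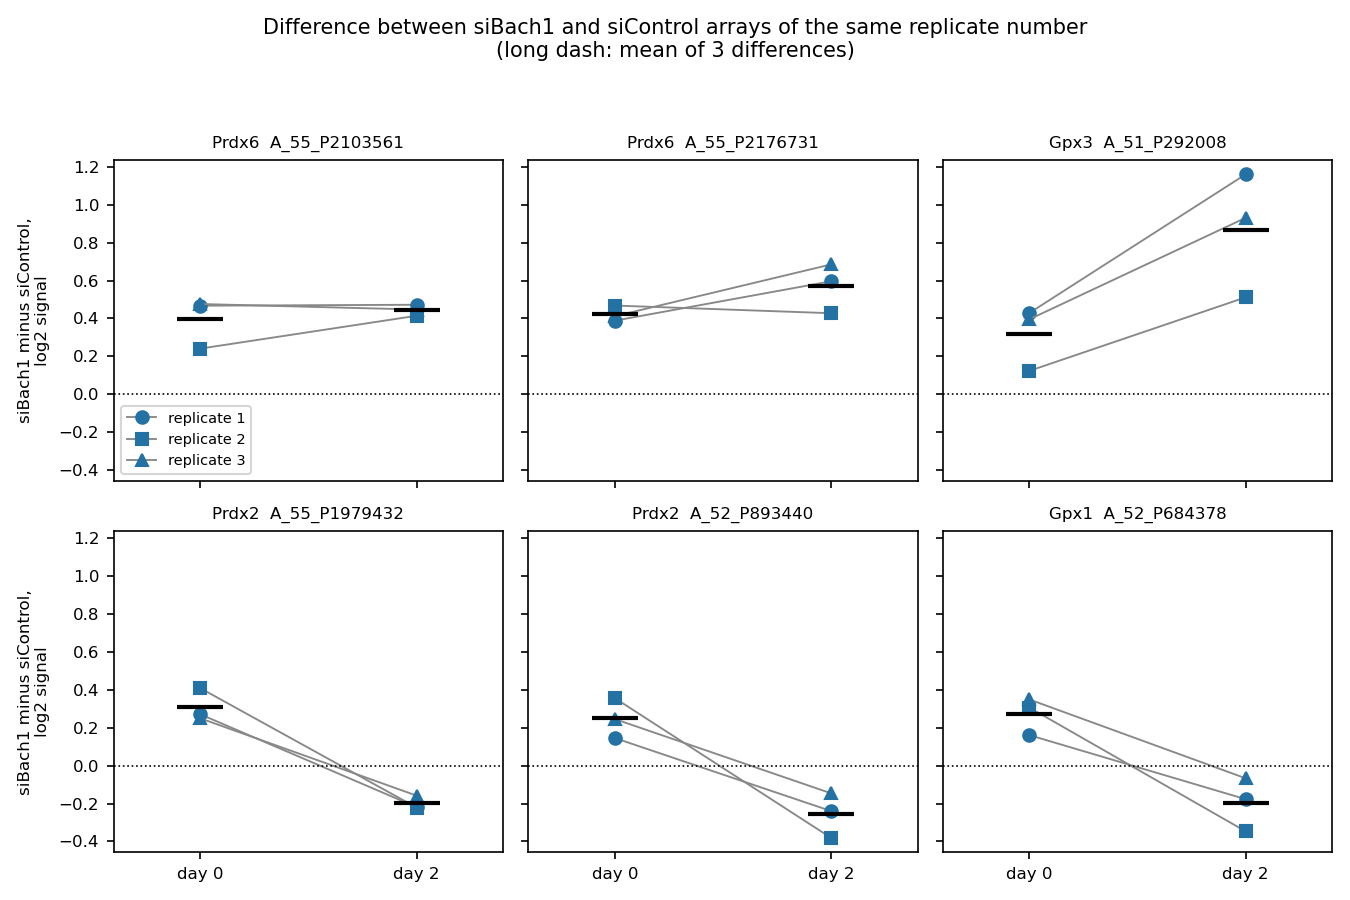
Difference in log2 signal between the siBach1 and siControl arrays of the same replicate number (y axis) at day 0 and day 2 (x axis) for 6 probes. Symbols are the 3 replicates, lines join a replicate's 2 days, and long dashes are means. Every value of Prdx6 and Gpx3 lies above 0, and every line of Prdx2 and Gpx1 crosses 0 downwards.

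From day 0 to day 2 in siControl cells, 12 of the 15 probes changed, 8 lower and 4 higher (limma, adjusted p under 0.05). Among all probes 53.4% changed, 28.7% lower and 24.6% higher. The fall took in Prdx1, Prdx3, Prdx4, Prdx6 and Gpx1, and the rise Gpx3, Gpx4 and Prdx5 (both probes), while Prdx2 passed on neither probe. The median log2 fold change was -0.51 over the 15 probes and 0.00 over all probes. Only Gpx3 reached 2-fold, as 20% of all probes did (10.5% higher and 9.46% lower). Without overlap were 9 probes lower and 4 higher, beside 32.8% and 29.1% of all probes, or 8 lower without the dim Prdx4 A_55_P2058340, which passed the filter through its day 0 arrays.

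Gpx3 rose from -2.35 ± 0.22 (mean ± SD, n = 3) to -1.13 ± 0.12 in siControl cells, by 1.22 ± 0.14 (2.32-fold; limma, adjusted p = 2.95e-05). Over 13 alternative settings this rise ran from 0.86 to 1.22 and passed in all, but it did not reach 2-fold at the low end. The 3 Prdx1 probes fell by 0.59, 0.76 and 0.85 (limma, adjusted p = 6.92e-05, 0.000351 and 1.88e-05). On A_55_P2904683 the day 0 arrays read 7.71, 7.70 and 7.66 and the day 2 arrays 7.09, 7.04 and 7.18. Both Prdx6 probes fell, by 0.66 and 0.85 (limma, adjusted p = 7.44e-05 and 3.44e-05). Prdx4 A_51_P200819 went from 4.97, 4.95 and 5.06 to 4.06, 4.07 and 4.37, a fall of 0.83 ± 0.13 (1.78-fold; limma, adjusted p = 0.000332), and Prdx3 from 3.86, 4.04 and 3.91 to 3.27, 3.46 and 3.42, a fall of 0.55 ± 0.10 (adjusted p = 0.000654). Gpx1 fell by 0.44 ± 0.12 (limma, adjusted p = 0.012).

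Gpx4 and Prdx5 also rose in siControl cells. Gpx4 read 6.55, 6.53 and 6.63 at day 0 and 6.82, 6.89 and 6.86 at day 2, up by 0.28 ± 0.10 (1.22-fold; limma, adjusted p = 0.0294). That call held in 7 of the 12 fits with 1 array left out and was lost without the filter on dim probes (adjusted p = 0.113). The 5 fits that lost it left out siControl day 0 replicate 1 (adjusted p = 0.076) or 2 (0.0865) or siControl day 2 replicate 1 (0.0511), 2 (0.0743) or 3 (0.0638). Prdx5, whose product is also a thioredoxin-dependent peroxidase, rose by 0.38 and 0.37 on its 2 probes (limma, adjusted p = 0.00379 and 0.0237). The call on A_55_P1979463 was lost without siControl day 0 replicate 1 (0.0516), siControl day 0 replicate 2 (0.0674), siControl day 2 replicate 2 (0.0686) or siControl day 2 replicate 3 (0.0787), with the adjusted p in parentheses. For Prdx2 the change was 0.15 (-0.02 to 0.33) on A_55_P1979432 and -0.01 (-0.23 to 0.21) on A_52_P893440.

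**Figure D4:**
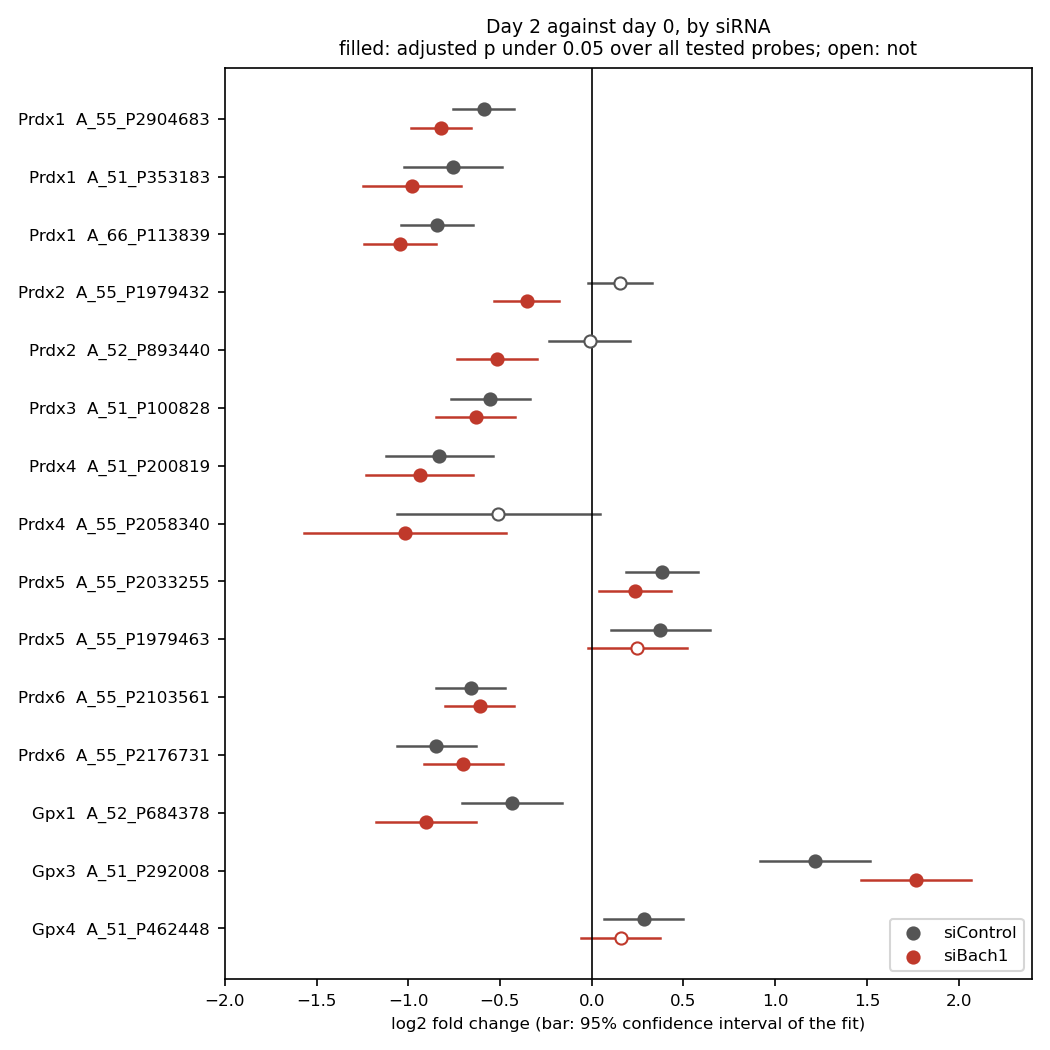
Log2 fold change from day 0 to day 2 (x axis) for the 15 tested probes (y axis), grey in siControl and red in siBach1 cells, with the 95% confidence interval of the fit as a bar and filled points for an adjusted p under 0.05. Gpx3, Gpx4 and Prdx5 lie right of 0 with both siRNAs, Prdx1, Prdx3, Prdx4, Prdx6 and Gpx1 left of it, and Prdx2 is filled in siBach1 cells only.

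In siBach1 cells 13 of the 15 probes changed over the same 2 days, 11 lower and 2 higher (limma, adjusted p under 0.05), where 56.1% of all probes changed, 32.3% lower and 23.8% higher. The median log2 fold change was -0.63 over the 15 probes and -0.07 over all probes. Of these, 2 reached 2-fold on arrays all well above background, Gpx3 upwards and Prdx1 A_66_P113839 downwards, as 20.5% of all probes did (10.9% higher and 9.59% lower). In all, 11 probes were lower and 2 higher without overlap, beside 35.4% and 25.9% of all probes. The 11 hold the dim Prdx4 A_55_P2058340, which passed the filter through its day 0 arrays, where it is high, so that a lower value at day 2 was favoured. Without it 10 of 14 probes were lower, the median was -0.62 and 10 were lower without overlap.

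Gpx3 went from -1.98, -1.99 and -2.14 to -0.10, -0.50 and -0.20 in siBach1 arrays, up by 1.77 ± 0.14 (3.4-fold; limma, adjusted p = 2.28e-06). Gpx1 fell from 5.90, 5.94 and 6.22 to 5.03, 4.98 and 5.33, by 0.90 ± 0.12 (1.87-fold; limma, adjusted p = 0.000112). Prdx2 fell on both probes, by 0.36 and 0.52 (limma, adjusted p = 0.00299 and 0.00113). Under quantile normalization the first of these was instead a rise of 0.02 that did not pass (limma, adjusted p = 0.847). The Prdx1 probes fell by 0.82, 0.98 and 1.04, those of Prdx6 by 0.61 and 0.70, Prdx3 by 0.63 and Prdx4 by 0.94 on A_51_P200819 (limma, adjusted p from 4.25e-06 to 0.000247). The dim Prdx4 A_55_P2058340 is given no fold or p here, because 1 of its 3 siBach1 day 2 arrays was not well above background. Prdx5 passed on A_55_P2033255 alone (0.24, adjusted p = 0.0409, against 0.25 and 0.108, or 0.0272 with the replicate block), and Gpx4 did not pass (0.16, -0.06 to 0.37; limma, adjusted p = 0.192). Gpx4 passed without siBach1 day 0 replicate 3 (0.25, adjusted p = 0.03). Quantile normalization moved many of these changes upwards, with falls then of 0.22 and 0.42 for the Prdx6 probes, 0.42, 0.61 and 0.79 for those of Prdx1, 0.39 for Prdx3, 0.56 for Gpx1 and 0.24 for Prdx2 A_52_P893440, and rises of 0.55 for Gpx4 and 0.61 and 0.56 for the Prdx5 probes A_55_P2033255 and A_55_P1979463, all past the test (limma, adjusted p from 2.53e-05 to 0.0403). The Prdx5 A_55_P2033255 call was past the test in 4 of the 12 fits with 1 array left out, and its adjusted p there ran up to 0.133. It was lost without siBach1 day 0 replicate 1 (0.0745), siBach1 day 0 replicate 2 (0.0843), siBach1 day 0 replicate 3 (0.0844), siBach1 day 2 replicate 1 (0.0598), siBach1 day 2 replicate 2 (0.133), siBach1 day 2 replicate 3 (0.0622), siControl day 0 replicate 2 (0.0523) or siControl day 2 replicate 1 (0.0545). The day effects of the 2 siRNAs differed past the test only for Prdx2 A_55_P1979432, this being the same test as the difference between the silencing effects.

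Set in order, the 4 conditions of Gpx3 ran siControl day 0, siBach1 day 0, siControl day 2, siBach1 day 2, with overlap between the first 2 only. Prdx6 ran siControl day 2, siBach1 day 2, siControl day 0, siBach1 day 0 on both probes, with no overlap between any neighbours. The spread of the 4 means was 2.08 on the log2 scale for Gpx3 and 1.06 and 1.27 for the Prdx6 probes. It was smallest for Prdx2 A_55_P1979432, at 0.36, and for Gpx4, at 0.38. The order of Prdx5 and Gpx4 was that of Gpx3, and Prdx3 had that of Prdx6, but siBach1 and siControl arrays overlapped at day 2 for all 3 genes.

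Probes of 1 gene were compared for the 5 genes with more than 1 tested probe. The 2 probes of Prdx6 gave the same calls in all 4 comparisons of conditions, and the 3 of Prdx1 had no silencing call and fell over the 2 days with both siRNAs. Prdx2 probes differed in 1 call at day 0, Prdx5 probes in 1 call between days in siBach1 cells and Prdx4 probes in 1 call between days in siControl cells, where A_55_P2058340 missed (limma, adjusted p = 0.11). Their log2 fold changes lay within 0.26 of each other except at Prdx4, where the pair was up to 0.45 apart. Binding of a probe to near-identical copies of its gene was not tested. Probes not tested were Gpx7 A_51_P461364, the only one for that secretory pathway peroxidase, and Prdx2 A_55_P2727155, neither well above background on any array, and Prdx1 A_66_P137616, well above it on 6 of the 12. No level is given for Gpx7.

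Other genes of the pathway were read from lists, each gene by its brightest probe. The thioredoxin system that recycles peroxiredoxins was mixed at day 0, where 2 of the 11 genes tested were higher and 3 lower in siBach1 cells, beside 8.8% and 8.32% of all probes, with a median of -0.14. Txnrd1, the cytosolic thioredoxin reductase, fell by 0.77 (limma, adjusted p = 0.00459), Srxn1, which restores overoxidized peroxiredoxins, by 0.57 (0.0279), and Txnrd3 was higher by 0.51 (0.0036). At day 2 Sesn1 alone passed (2 higher and 4 lower at an unadjusted p under 0.05), higher by 0.47 (adjusted p = 0.00333). Over the 2 days 7 of the 11 fell and 3 rose in siControl cells and 8 fell and 3 rose in siBach1 cells. Of all probes, 28.7% fell and 24.6% rose with siControl, and 32.3% fell and 23.8% rose with siBach1. Srxn1 fell by 2.69 with siControl and fell by 2.12 with siBach1 and Txnip, an inhibitor of thioredoxin, rose by 1.98 and 1.59 (limma, adjusted p from 3.11e-07 to 4.58e-05).

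Genes of glutathione supply and reduction serve the electron source of the glutathione peroxidases. With silencing 1 of the 10 tested was higher and 1 lower at day 0, beside 8.8% and 8.32% of all probes. At day 2, 3 were higher and 1 lower, where 5.75% of all probes were higher and 6.26% lower. Gclm, the modifier subunit of glutamate-cysteine ligase, was higher by 0.79 and 1.18 at the 2 days (limma, adjusted p = 0.000893 and 0.000225). Gclc, the catalytic subunit, was higher by 0.63 and Glrx by 0.41 at day 2 (adjusted p = 0.00282 and 0.0126), and Gsr, glutathione reductase, fell by 0.70 at day 0 (adjusted p = 0.00207). Over the 2 days 7 of the 10 fell in siControl cells and none rose (limma; 1 higher at an unadjusted p under 0.05). Of all probes, 28.7% fell and 24.6% rose there. In siBach1 cells 6 fell and 1 rose, beside 32.3% and 23.8% of all probes. In the list of NADPH supply 3 of 8 were higher at day 0 (Idh1 0.63, Pgd 0.33, Taldo1 0.32) and Me1 at day 2 (0.43), and G6pdx, the entry enzyme of the pentose phosphate pathway, fell by 2.33 with siControl and fell by 2.76 with siBach1 over the 2 days (limma, adjusted p = 4.75e-06 and 1.55e-06).

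No superoxide dismutase or catalase gene passed for silencing at either day (0 of 4, limma; 1 lower at day 0 and 1 higher at day 2 at an unadjusted p under 0.05). Of all probes, 17.1% passed at day 0 and 12% at day 2. Sod1 and Cat fell over the 2 days with both siRNAs. Of the 9 genes listed as superoxide and peroxide producers, 6 were tested, and for silencing only Nox1 passed, at -0.68 at day 2 (limma, adjusted p = 0.0321). There 6.26% of all probes passed as lower. Nox1 was dim, with day 2 means of -2.94 with siControl and -3.62 with siBach1, and was well above background on 11 of the 12 arrays. The 4 other glutathione peroxidases had 2 tested. Gpx8, an enzyme of the endoplasmic reticulum, was higher by 0.33 at day 0 in siBach1 cells (limma, adjusted p = 0.0415) and fell by 0.50 with siControl and fell by 0.62 with siBach1 over the 2 days. Among 9 genes of selenoprotein synthesis, which Gpx1, Gpx3 and Gpx4 depend on, 6 fell and 2 rose over the 2 days in siControl cells and 7 fell and 1 rose in siBach1 cells, beside 28.7% and 32.3% of all probes that fell. With silencing 0 passed at day 0 in limma (1 lower at an unadjusted p under 0.05), and Secisbp2 (-0.53) and Trnau1ap (-0.52) were lower at day 2. Of 10 genes listed as other selenoproteins, 5 rose and 1 fell in siControl cells, beside 24.6% and 28.7% of all probes. That list also holds Selenbp1, the gene of a selenium-binding protein. Sepp1, the plasma selenium carrier, led the rises at 3.47 (limma, adjusted p = 3.67e-07). With silencing 2 of the 10 were higher and 1 lower at each day. Of all probes, 8.8% were higher and 8.32% lower at day 0, and 5.75% and 6.26% at day 2. Dio2, which activates thyroid hormone, was higher at both days (0.69 and 1.15; limma, adjusted p = 0.00136 and 0.000191), Sepw1 at day 0 (0.53, adjusted p = 0.018) and Sepp1 at day 2 (0.96, adjusted p = 0.0133). Selm was the lower one at both days (-0.29 and -0.41; limma, adjusted p = 0.042 and 0.0144).

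For the 3 members with the widest spread of condition means, each by its brightest probe, the genes whose 12 array values followed them most closely were found by the root mean square difference after each probe's own mean was subtracted, over 13550 genes that passed the background flag on each array. Nearest to Gpx3 were LOC102638888, Mettl20 and Tmem64, at 0.13, 0.15 and 0.17 on the log2 scale, where the median gene was at 0.90. Nearest to Prdx6 were Agpat5, Snx5 and Scoc, at 0.09, 0.09 and 0.11 against a median of 0.47, and nearest to Prdx4 were Wdr3, Mad2l2 and Las1l, at 0.06, 0.06 and 0.07 against a median of 0.51. All of these share the same 12 RNA samples.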

How the data were processed

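RNA from 12 C2C12 samples (4 conditions of 3) was hybridised to one-colour Agilent SurePrint G3 Mouse GE 8x60K arrays, 1 sample per array. The authors extracted spot intensities with Agilent Feature Extraction, version 9.1 in the submitters' processing notes but 10.7.3.1 in the headers of the scanner files. They deposited the intensities per array as processed signal intensity with flags. They also deposited log2 values, shifted to each array's 75th percentile and centred per probe, and these deposited log2 values served as an alternative. Columns of the authors' own comparisons hold fold changes and p-values and were not used.

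From the processed signal, control spots and outlier spots (76 to 110 per array) were left out, spots of a probe were averaged, and log2 signal minus the array's 75th percentile (326 to 534) was taken, which reads every value relative to the array's own brightness. The deposited log2 values were rebuilt from the processed signals of the deposited probe table, by the percentile shift and centring on each probe's median. Rebuilt and deposited values differed by at most 0.0048. The values fitted here were not part of that check. Signals give no counts, and the number of arrays limits the precision.

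All 4 conditions were fitted together in limma 3.58.1 (R 4.3.3) without a block. A probe was tested if in at least 1 condition all 3 arrays had it flagged as well above background (29664 probes), and passed at a Benjamini-Hochberg adjusted p under 0.05 over all of them. The fit was run on simulated data with independent noise, where 200 of 29644 probes were changed by 1.5 on the log2 scale in siBach1 day 2 arrays. It recovered 83% of them for silencing at day 2 and 67% for the difference between silencing effects. Smaller changes and noise shared by replicate number were not simulated. The members, gene lists and named genes (every tested member, and pathway genes past the test, up to 3 per list and comparison by size) were chosen with earlier results of these data known. Results of 1 marker list are not reported here.

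Replicate numbers, which the labels give, were checked as pairs. Array deviations from the condition means correlated at 0.142 to 0.595 for the 18 pairs of arrays with the same number. For the 36 pairs with different numbers they correlated at -0.443 to 0.265. Deviations within a condition cancel out, so these 2 sets of correlations are tied to each other. Arrays of the same number also shared a slide row, so pairing of the samples and position cannot be told apart. Replicates 1 and 2 of every condition lay on slide 1 and replicate 3 on slide 2. Each condition kept its own column of the slide, so position and condition cannot be told apart. Alternatives were a replicate or slide block, quantile normalization, normexp background correction, other filters on dim probes, the deposited values, a trended robust prior, the arrays of 1 comparison alone, means over a gene's probes, the methods' t-test, a 2-fold minimum, and each array left out. The scanner files name mouse build mm9, and promoter coordinates are those of RefSeq's GRCm38.p6. Python 3.11.15 with pandas 2.3.3, numpy 2.4.6, scipy 1.17.1 and matplotlib 3.10.9 made the tables and plots.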

Additional observations from a re-analysis of the deposited data

Results flagged for a closer look

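The silencing effect on Prdx2 A_55_P1979432 differed between day 2 and day 0 by -0.51 on the log2 scale (95% confidence interval -0.76 to -0.26; limma, adjusted p = 0.0334), with the siBach1 arrays all above the siControl arrays at day 0 and all below them at day 2. It is listed for this difference between the days, seen in 3 of 3 replicate numbers and missed in 10 of the 12 fits with 1 array left out.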

How the results depend on the processing

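Counts of the 15 member probes past the test depended on the setting as follows. They are not set against the share of all probes past the test under each setting. A higher or lower count is therefore no result about the members. For silencing at day 0 (3 probes) the count was 0 with a 2-fold minimum and 0 without the filter on dim probes, 1 by the methods' t-test once adjusted over all probes, 1 under quantile normalization, 6 with the replicate number as a block and 7 with the slide as a block, and 1 to 3 with 1 array left out, the 1 coming without siControl day 0 replicate 1 or 2. For silencing at day 2 (3 probes) it was 0 with a 2-fold minimum, 0 and 5 by the methods' t-test with and without adjustment and 5 with the slide block (both Prdx2 probes gained, lower), and 3 with any array left out. Day 2 against day 0 gave 1 probe in siControl cells and 3 in siBach1 cells (the dim Prdx4 A_55_P2058340 among them) with a 2-fold minimum, against 12 and 13, and 8 of 9 genes in siBach1 cells by means over a gene's probes. Left-out ranges were 10 to 12 and 12 to 13. The difference between the silencing effects (1 probe) gave 0 with a 2-fold minimum, without the filter, with normexp correction and under quantile normalization, 2 with a trended robust prior, 5 by the unadjusted t-test, 3 with the replicate block, 3 with the slide block, and 0 to 1 with 1 array left out. Prdx2 A_55_P1979432 from day 0 to day 2 in siBach1 cells reversed under quantile normalization, to 0.01841 from -0.36. With the replicate block no call changed beyond those given beside the results. Without the filter the median of all probes moved to 0.17 for silencing at day 0, 0.11 and -0.15 between days in siControl and siBach1 cells and -0.15 for the difference between silencing effects. In the 250 bases before the start alone, 10.2% of windows held TGACNNNGC, 6.75% TGANTCA and 13.0% CAGCTG. The causes were not tested. Of 1855 alternative values for 75 probe results, 1734 kept their side of the threshold. Among these 1734, 30 that passed neither in the main fit nor in the alternative changed sign. Gpx7, Prdx2 A_55_P2727155 and Prdx1 A_66_P137616 were limited by signal over background.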
